A study of Mus musculus with 6 samples.

Results

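The genes described here are 32 factors that silence transposons in chromatin or restrict their RNA and proteins in the cell, taken by name from the gene counts of mouse 3T3 cells. All 32 were among the 54532 genes listed. Of these 32, 31 had 10 or more reads summed over the 6 libraries and were tested with 19452 genes in all, and Trex1 had no read. The 3 control libraries and the 3 libraries with a triple knockdown (SAFB KD) came from Flp-In 3T3, an established line of mouse embryonic fibroblasts that carries a recombination site for transgenes. SAFB KD cells received siRNAs against Safb, Safb2 and Sltm together, and control cells a control treatment. Cells were transfected on plating and again a day later, and were harvested on the third day after the first transfection. Poly(A)+ RNA was sequenced from each culture as a bulk sample, so fewer cells of a kind and less RNA per cell cannot be told apart.

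As background, mammalian cells silence transposons in layers. KRAB zinc finger proteins bind transposon DNA and bring in TRIM28, which recruits the methyltransferase SETDB1. The HUSH complex (MPP8, TASOR and periphilin) is directed to long transcription units with few introns, many of them young L1 elements, and acts with MORC2 and SETDB1. Both routes leave trimethylation of histone H3 lysine 9 (H3K9), which HP1 proteins bind, and DNA methylation keeps many copies silent through cell division. In the cytoplasm, restriction factors bind or destroy the RNA, DNA or proteins of elements that are still transcribed. The comparison asked how the transcripts of these factors stood in fibroblasts after knockdown of SAFB proteins, which bind RNA in the nucleus and are named after scaffold attachment factor B.

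The 6 libraries held 33323307 to 53441129 counts each, and the tested members had between 146 and 29710 reads in a library. Safb measured 90.2, 94.8 and 96.1 CPM (counts per 1000000 counts, scaled by the TMM method) in controls 1 to 3 and 48.5, 46.8 and 44.5 in SAFB KD 1 to 3, a log2 fold change of -1.01 (SE 0.040, edgeR adjusted p = 6.56e-23). The change was -0.64 for Safb2 and -0.70 for Sltm, and no SAFB KD library overlapped a control library for any of the 3 targets, so the knockdown was partial at the RNA level. The 10 fibroblast markers summed to 19876 to 21826 CPM in controls and 18654 to 19155 CPM in SAFB KD, with 1 higher and 7 lower by the test. All 6 epithelial and all 6 pluripotency markers stayed under 1 CPM in every library, and the 6 leukocyte markers summed to 6.34 to 6.89 CPM in controls and 8.5 to 10.5 CPM in SAFB KD, mostly from Cd68. The part of these shifts in the results was not tested.

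The siRNAs are shown because a stretch shared with a member would bear on its level. Their sense strands, as listed by the study, were matched to the mouse transcripts of GENCODE M21. Capitals mark the bases that pair with the seed of the guide strand.
Safb siRNA: ggaugaccguuACCACUCa
Safb2 siRNA: ugcuuuugaugACAGUAAa
Sltm siRNA: gcauuagaauaAUUCGUGa
Each sequence of 19 bases had a full match in the transcripts of 1 gene, its own target, including the Sltm siRNA, which was designed against the human gene. None had a full match in a transcript of the 32 members. The longest run shared with any of these was 11 bases for the Safb siRNA, in Suv39h1, and 11 for the Safb2 siRNA, in Cbx1. For the Sltm siRNA it was 10 bases, in Ehmt1. Matches of the seed alone were not searched.

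Of the 31 tested members, 7 were higher and 10 lower in SAFB KD at an adjusted p under 0.05, and 14 were not called. In all tested genes, 41.5% were called, 21.4% higher and 20.1% lower. Most members were well expressed, and among the 9841 tested genes within their range of mean CPM (5.77 to 615.5) the share called was 64.0%, with 34.2% higher and 29.8% lower. The share of members called, 54.8%, thus lay above that of all genes and below that of genes at like levels. The counts alone do not set the members apart. The genes called higher were Setdb1, Zc3hav1, Dnmt3b, Suv39h1, Suv39h2, Sumo2 and Ehmt2. Those called lower were Atrx, Uhrf1, Ehmt1, Cbx5, Pphln1, Trim28, Mphosph8, Resf1, Chaf1b and Dnmt1.

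The changes were small. The median size of the log2 change was 0.108 for the members, against 0.273 for all tested genes and 0.175 for genes at like levels. The signed median was -0.002, against 0.010 for all tested genes. None of the 31 passed the test for a change beyond 2-fold (edgeR glmTreat), which 1.22% of all tested genes passed. Of the 31 genes, 7 differed by more than 1.2-fold and 18 by less than 1.1-fold. The groups did not overlap for 18 members, 8 with SAFB KD above and 10 below, against 49.0% of all tested genes. That share was not computed for genes at like levels, so no excess among the members can be read from it. Replicates lay close together, with a median coefficient of variation of 3.2% in controls and 2.35% in SAFB KD, so differences as small as 1.06-fold (Dnmt1) were called. Across genes the widest pair was controls 1 and 3, at a chi-square per degree of freedom of 19.6, against 3.92 to 7.98 elsewhere. The controls were the wider group for 67.7% of tested members and 55.5% of genes at like levels.

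**Figure D1:**
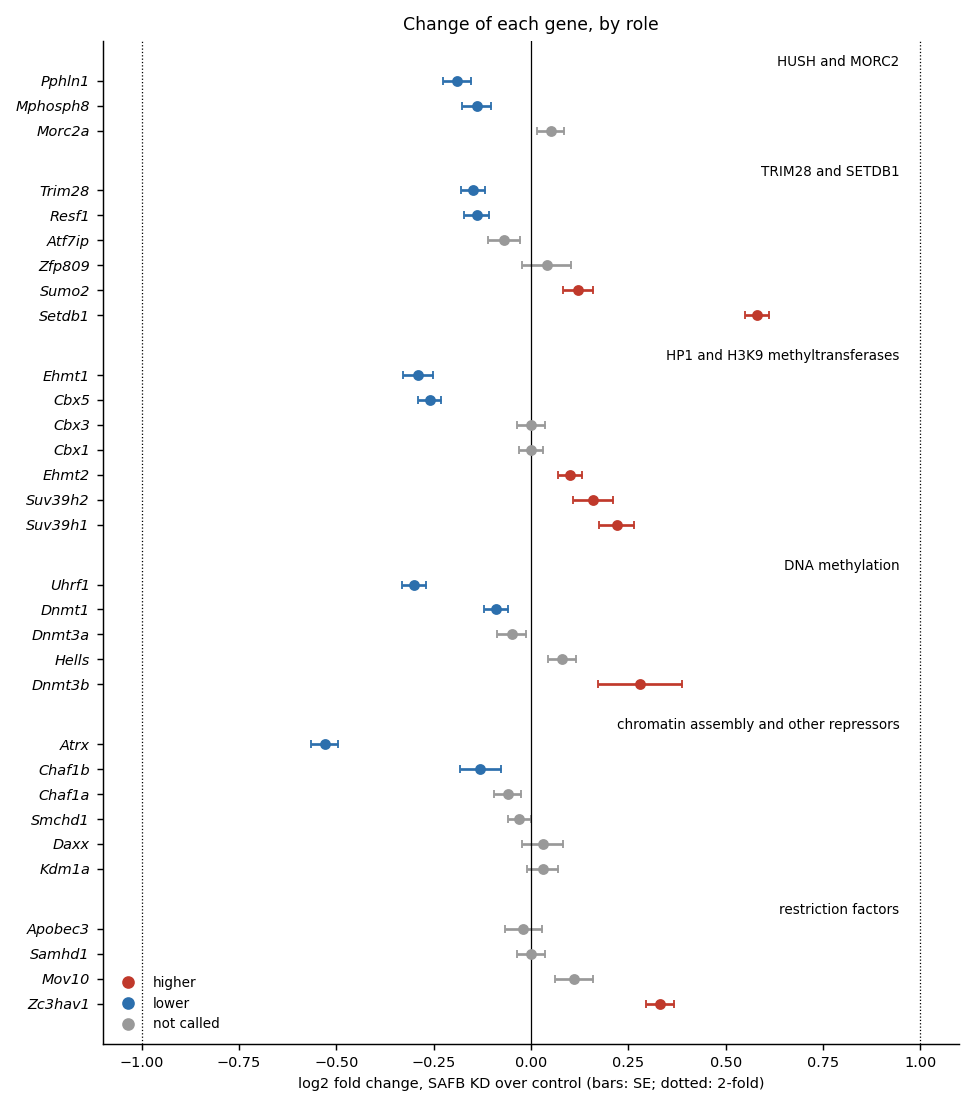
Log2 fold change of SAFB KD over control for each of 31 tested genes, grouped by role, with the standard error (SE) as bars and the 2-fold limits dotted. Setdb1 (0.58) and Atrx (-0.53) lie farthest from 0, and every other gene lies between -0.30 and 0.33.

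Transcripts of both HUSH components among the members were lower in SAFB KD. Mphosph8 encodes MPP8, the subunit that binds methylated H3K9 (chromosome 14, 56668248 to 56697430, plus strand, GRCm38). It measured 72.1, 75.9 and 77.6 CPM in controls and 70.0, 67.9 and 66.6 CPM in SAFB KD, a log2 fold change of -0.14 (SE 0.038, edgeR adjusted p = 0.00216). Pphln1 encodes periphilin, which binds RNA (chromosome 15, 93398350 to 93491510, plus strand). It measured 88.2, 88.9 and 86.7 CPM in controls and 79.1, 75.5 and 76.7 CPM in SAFB KD, a change of -0.19 (SE 0.035, adjusted p = 1.86e-05). For both genes the groups did not overlap, with SAFB KD below control. The study names a retrocopy of Pphln1 within Bfar among its mouse pairs with a rising copy and a falling host. Reads that fit Pphln1 and this copy equally well are left out by the counting, and the values of the copy are not given here. Morc2a, which encodes an ATPase that compacts chromatin at HUSH targets (chromosome 11, 3649191 to 3690477, plus strand), measured 90.3 to 92.7 CPM in controls and 94.7 to 95.1 CPM in SAFB KD. Its groups did not overlap, but the change of 0.05 was not called (adjusted p = 0.214). Tasor, the scaffold of HUSH and not a member, had a change of 0.03 (adjusted p = 0.666).

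Among genes of the TRIM28 and SETDB1 route, Setdb1 was higher. With all libraries its change was also the largest in size of all members, but without control 1 that of Atrx was larger (-0.581 against 0.569). SETDB1 trimethylates H3K9 at transposons, and its gene lies on chromosome 3, 95323525 to 95357202, minus strand (ENSMUSG00000015697). It measured 126.5, 129.2 and 127.0 CPM in controls and 193.7, 189.0 and 190.5 CPM in SAFB KD. The control mean was 127.6 ± 1.43 and the SAFB KD mean 191.1 ± 2.43 CPM (SD of 3 libraries), which is 1.5-fold higher (log2 fold change 0.58, SE 0.031, edgeR adjusted p = 9.40e-19). The difference was many times the spread within either group. It stayed between 0.566 and 0.589 over the 12 alternative fits. Cers2, which overlaps exons of Setdb1 on the opposite strand, had a change of 0.12 (adjusted p = 0.00186).

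The other genes of this route moved less. Trim28, the corepressor that KRAB zinc finger proteins recruit (chromosome 7, 12999114 to 13031035, plus strand), measured 252.8, 244.3 and 235.9 CPM in controls and 221.6, 217.8 and 220.5 CPM in SAFB KD. Its change was -0.15 (SE 0.031, adjusted p = 8.71e-05), with no overlap between groups. Resf1, whose protein helps SETDB1 silence retroviruses (chromosome 6, 149309414 to 149335663, plus strand), measured 144.2, 147.7 and 149.2 CPM in controls and 135.5, 137.0 and 128.4 CPM in SAFB KD, a change of -0.14 (adjusted p = 6.31e-04). Atf7ip, the partner that keeps SETDB1 stable in the nucleus, measured 69.4 to 75.4 CPM in controls and 64.7 to 71.5 CPM in SAFB KD, and was not called (-0.07, adjusted p = 0.208). Zfp809, a KRAB zinc finger gene whose protein binds the primer binding site of murine leukaemia viruses, stood at 16.7 to 17.2 CPM in controls and 17.3 to 17.6 CPM in SAFB KD (0.04, adjusted p = 0.682). Sumo2, the modifier through which TRIM28 engages SETDB1, was called higher (0.12, adjusted p = 0.00787), but control 3 at 231.1 CPM equalled SAFB KD 1, and controls 1 and 2 stood at 193.6 and 214.9 CPM. Without control 1 its change was 0.051 (adjusted p = 0.218), and DESeq2 did not call it (adjusted p = 0.201).

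**Figure D2:**
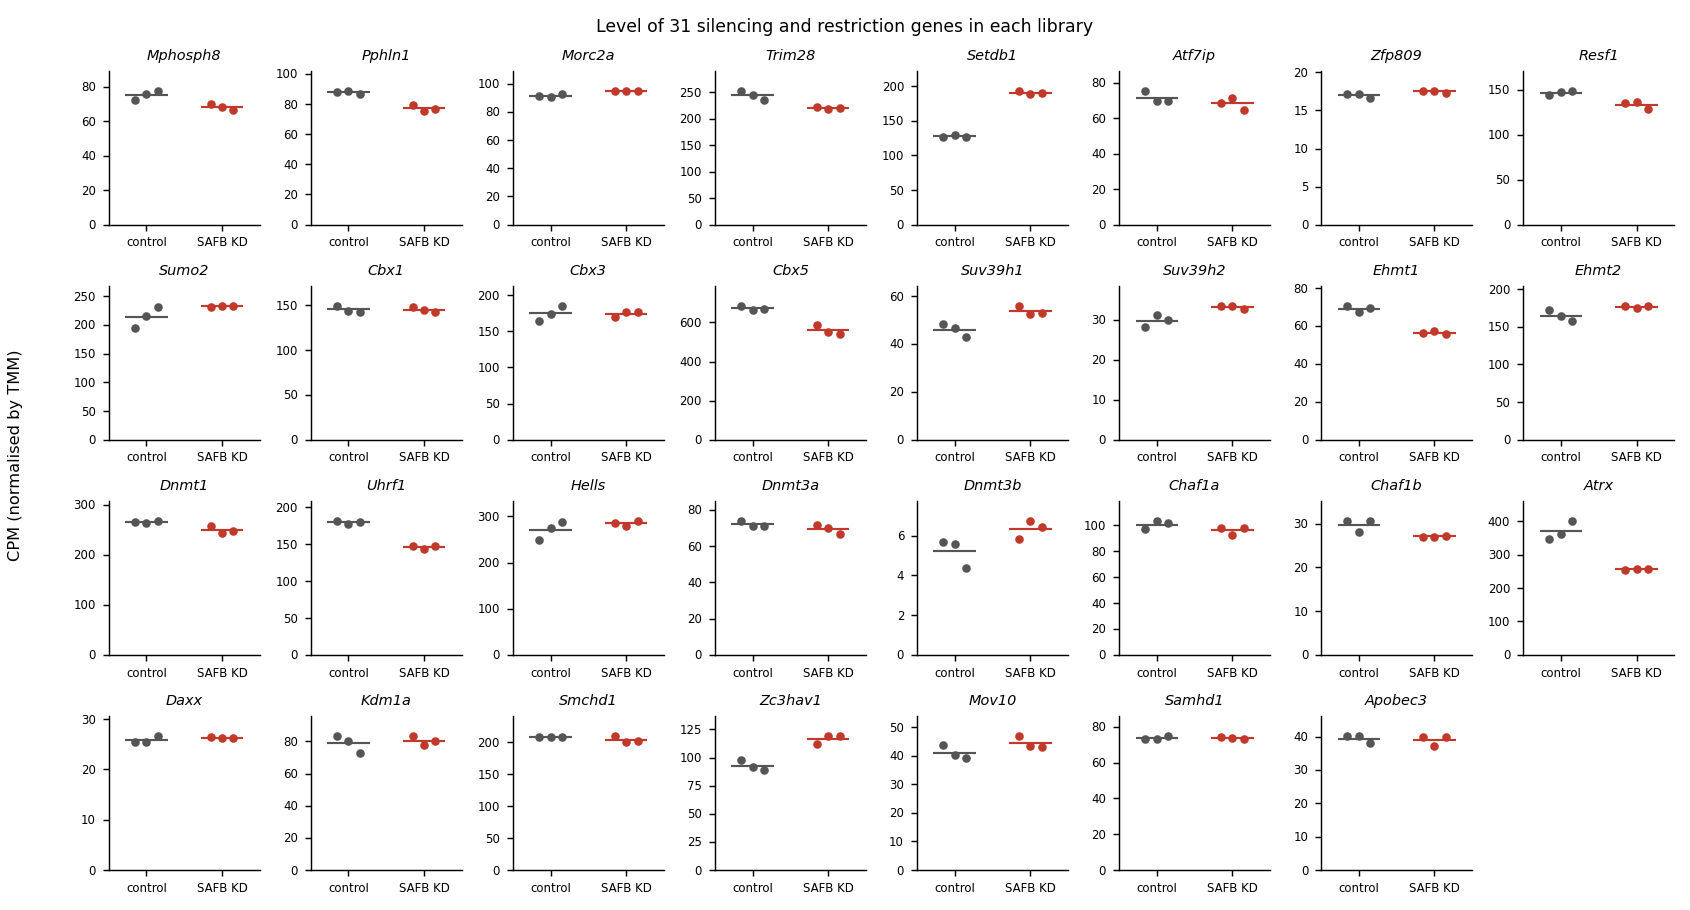
CPM of each of 31 genes in the 3 control (grey) and 3 SAFB KD (red) libraries, with the mean of each group as a line and each axis starting at 0. The Setdb1 points sit at 126.5 to 129.2 CPM in control and 189.0 to 193.7 CPM in SAFB KD, while most other panels show groups that overlap or lie close.

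The HP1 genes, which encode readers of methylated H3K9, did not move together. Cbx5, which encodes HP1 alpha (chromosome 15, 103191544 to 103239816, minus strand), had the highest count level of all members. It measured 684.7, 662.5 and 667.5 CPM in controls and 585.9, 552.1 and 540.2 CPM in SAFB KD, 1.2-fold lower (log2 fold change -0.26, SE 0.030, edgeR adjusted p = 1.66e-09). Cbx1, which encodes HP1 beta, averaged 145.3 ± 3.56 CPM in controls and 145.2 ± 2.89 CPM in SAFB KD (adjusted p = 0.972). Cbx3, which encodes HP1 gamma, averaged 174.8 ± 10.3 and 174.3 ± 4.11 CPM (adjusted p = 0.978). The groups of both overlapped.

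The methyltransferases of H3K9 other than Setdb1 changed in both directions. The Suv39h genes, whose products trimethylate H3K9 in pericentromeric heterochromatin and at young L1 and ERV copies, were higher. Suv39h1 (chromosome X, 8061171 to 8074760, minus strand) measured 48.2, 46.6 and 43.0 CPM in controls and 55.9, 52.5 and 52.8 CPM in SAFB KD, a change of 0.22 (SE 0.045, adjusted p = 7.89e-05). Suv39h2 (chromosome 2, 3455815 to 3475031, minus strand) measured 28.3, 31.2 and 29.9 CPM in controls and 33.5, 33.5 and 32.6 CPM in SAFB KD (0.16, adjusted p = 0.0119), and its call was lost without control 1 (0.111, adjusted p = 0.108).

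The genes of the GLP and G9a enzymes, which act as a pair on H3K9, went opposite ways. Ehmt1, which encodes GLP (chromosome 2, 24789928 to 24919614, minus strand), measured 70.6, 67.5 and 69.5 CPM in controls and 56.2, 57.5 and 55.6 CPM in SAFB KD. It was 1.23-fold lower (-0.29, SE 0.039, adjusted p = 3.37e-08). Ehmt2, which encodes G9a (chromosome 17, 34898469 to 34914052, plus strand), measured 171.6, 164.6 and 157.5 CPM in controls and 177.5, 175.3 and 177.7 CPM in SAFB KD. The rise of 0.10 passed the test (adjusted p = 0.00915) but not without control 3 (0.059, adjusted p = 0.162) or control 2 (0.092, adjusted p = 0.0783). The Ehmt1 fall remained called under all 12 alternative fits.

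Among genes of DNA methylation, Uhrf1 and Dnmt1 were lower and Dnmt3b was higher. UHRF1 binds hemimethylated DNA behind the replication fork and brings in the maintenance enzyme DNMT1. Uhrf1 (chromosome 17, 56303321 to 56323486, plus strand) measured 181.5, 177.9 and 180.8 CPM in controls and 147.3, 143.7 and 148.0 CPM in SAFB KD. It was 1.23-fold lower (log2 fold change -0.30, SE 0.031, edgeR adjusted p = 1.33e-10), with a gap between the groups far wider than either. Dnmt1 (chromosome 9, 20907209 to 20959888, minus strand) measured 264.6, 263.2 and 267.1 CPM in controls and 258.0, 243.8 and 246.8 CPM in SAFB KD, a change of -0.09 (adjusted p = 0.0192). That call was lost without SAFB KD 2 (-0.072, adjusted p = 0.110) and without SAFB KD 3 (-0.080, adjusted p = 0.0823). Hells, a remodeller that opens nucleosomes to DNA methylation, measured 249.7, 273.9 and 287.9 CPM in controls and 278.4 to 289.9 CPM in SAFB KD, and was not called (0.08, adjusted p = 0.0858). It passed without control 3 (0.109, adjusted p = 0.00757), and by limma-voom, without the count minimum and with a replicate block. Without control 1 its change was 0.014 (adjusted p = 0.770).

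The de novo methyltransferase genes were lower in level than Dnmt1 per kilobase of exon, at 4.33 ± 0.0896 CPM per kb for Dnmt3a and 1.02 ± 0.145 for Dnmt3b in controls, against 35.9 ± 0.267 for Dnmt1. Dnmt3a was not called (-0.05, adjusted p = 0.277). Dnmt3b measured 5.67, 5.59 and 4.35 CPM in controls and 5.85, 6.73 and 6.42 CPM in SAFB KD, a change of 0.28 with the widest error of all members (SE 0.107, adjusted p = 0.0336). Without control 3 its change was 0.161 (adjusted p = 0.257). It was also not called without SAFB KD 2 (0.234, adjusted p = 0.138), without SAFB KD 3 (0.269, adjusted p = 0.0925) or by DESeq2 (adjusted p = 0.0945).

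Uhrf1, Dnmt1, Hells and the Chaf1 genes are transcribed mostly in cycling cells, so genes of S phase were read beside them. Of 20 such genes, 2 were higher and 4 lower, with a median change of 0.021, and their summed level was 2223 to 2268 CPM in controls and 2188 to 2283 CPM in SAFB KD. Pcna, the sliding clamp of replication, went from 215.1 to 237.3 CPM in controls to 199.2 to 206.1 CPM in SAFB KD (-0.16, adjusted p = 7.04e-05). Gins1 (-0.45) and Gins2 (0.30), subunits of 1 helicase complex, changed in opposite directions, and Mcm2 was higher (0.11). The part of cell cycling in the Uhrf1 result was not tested.

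Of the genes for chromatin assembly and other repressors, Atrx changed most and was the member that fell furthest. ATRX is a chromatin remodeller that deposits histone H3.3 with DAXX at repeats and telomeres. Atrx (chromosome X, 105797615 to 105929403, minus strand, ENSMUSG00000031229) measured 346.2, 362.4 and 400.5 CPM in controls and 255.4, 255.8 and 256.8 CPM in SAFB KD. The control mean was 369.7 ± 27.8 and the SAFB KD mean 256.0 ± 0.753 CPM (SD of 3 libraries), which is 1.44-fold lower (log2 fold change -0.53, SE 0.035, edgeR adjusted p = 9.04e-16). The controls were spread wide and the SAFB KD libraries lay almost on 1 value, but the lowest control was still far above all of them. Over the 12 alternative fits the change ranged from -0.581 to -0.483. Daxx, its partner, measured 25.5 to 26.6 CPM in controls and 26.3 to 26.4 CPM in SAFB KD (0.03, adjusted p = 0.733).

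Chaf1a and Chaf1b encode subunits of the histone chaperone CAF-1. Chaf1b measured 30.5, 28.2 and 30.6 CPM in controls and 27.0, 27.0 and 27.2 CPM in SAFB KD, a change of -0.13 (adjusted p = 0.0371) that was lost when any library but control 2 was left out (adjusted p = 0.0665 to 0.0935) and without the count minimum (adjusted p = 0.0649). Chaf1a was not called (-0.06, adjusted p = 0.164), but was without control 1 (-0.096, adjusted p = 0.0322). Kdm1a, a demethylase that represses ERV copies in early embryos, averaged 78.8 ± 5.34 CPM in controls and 80.4 ± 2.71 CPM in SAFB KD (adjusted p = 0.656). Smchd1, a repressor of the inactive X chromosome and of some gene clusters, averaged 208.4 ± 0.652 and 204.2 ± 4.81 CPM (adjusted p = 0.482).

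Among restriction factors, Zc3hav1 alone was called. It encodes ZAP, an antiviral protein that binds CpG-rich RNA and directs its decay (chromosome 6, 38305286 to 38354603, minus strand). It measured 97.5, 91.6 and 89.2 CPM in controls and 112.1, 119.0 and 118.9 CPM in SAFB KD, 1.26-fold higher (log2 fold change 0.33, SE 0.036, edgeR adjusted p = 6.40e-10). The groups did not overlap. Mov10, which encodes an RNA helicase that limits L1, measured 43.7, 40.2 and 39.1 CPM in controls and 46.8, 43.2 and 43.1 CPM in SAFB KD (0.11, adjusted p = 0.069), and was called without control 1 (0.151, adjusted p = 0.0133) and with a replicate block (0.114, adjusted p = 0.0422). Without control 3 its change was 0.063 (adjusted p = 0.358) and without SAFB KD 1 it was 0.070 (adjusted p = 0.317). Samhd1, which encodes an enzyme that depletes nucleotides, averaged 73.7 ± 0.875 and 73.8 ± 0.630 CPM (adjusted p = 0.970). Apobec3, a cytidine deaminase gene, averaged 39.4 ± 1.23 and 39.0 ± 1.65 CPM (adjusted p = 0.831).

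Trex1, which encodes an exonuclease that degrades DNA in the cytoplasm, had 0 counts in all 6 libraries. In the annotation, all of its exonic bases lie under exons of Atrip on the same strand, and reads that fall on exons of more than 1 gene are left out by this kind of counting. Its 0 therefore says nothing of its expression. Atrip itself had a change of 0.02 (adjusted p = 0.902). For every other member this share was at most 7.15% (Apobec3).

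Zc3hav1 responds to interferon, and interferon-stimulated genes were read beside it. Of 18 tested genes, 5 were higher and 3 lower, with a median change of 0.037. Ifit1 (0.82, adjusted p = 6.76e-10), whose product binds foreign RNA ends, and the chemokine gene Cxcl10 (1.26, adjusted p = 1.34e-08) were higher. Ifit2 (-0.37, adjusted p = 5.09e-08) was lower. The list's summed level was 190.8 to 193.0 CPM in controls and 176.3 to 189.8 CPM in SAFB KD. The part of interferon in the Zc3hav1 result was not tested.

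Ratios of partner genes within a library do not depend on how libraries are scaled, and 8 pairs, chosen after their values were seen, are given without a test. The ratio of Setdb1 to Trim28 reads was 0.5 to 0.538 in controls and 0.864 to 0.874 in SAFB KD. For Setdb1 to Atf7ip it was 1.68 to 1.86 in controls and 2.64 to 2.94 in SAFB KD. These pairs shifted by 0.73 and 0.65 on the log2 scale. The ratio of Ehmt1 to Ehmt2 went from 0.41 to 0.441 in controls to 0.313 to 0.328 in SAFB KD, a shift of -0.40, and that of Suv39h1 to Ehmt1 from 0.62 to 0.69 to 0.912 to 0.995, a shift of 0.52. Atrx to Daxx stood at 13.6 to 15 in controls and 9.66 to 9.75 in SAFB KD. The ratios of Uhrf1 to Dnmt1 (shift -0.21), Cbx5 to Cbx1 (-0.26) and Mphosph8 to Tasor (-0.17) moved less. The groups did not overlap in any of the 8 pairs, which is no added evidence, since the pairs were picked with their values known. Among all tested genes taken singly, 49.0% also showed no overlap, and the share among other pairs was not computed.

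**Figure D3:**
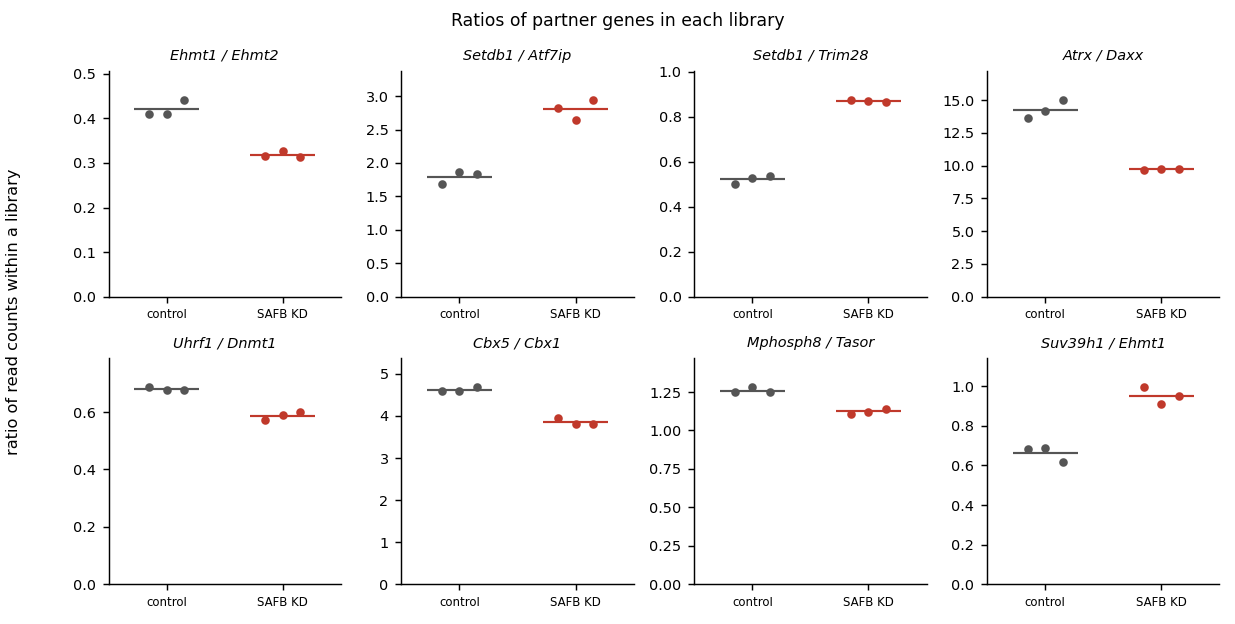
Ratio of the read counts of partner genes in each control (grey) and SAFB KD (red) library, with the mean of each group as a line and axes starting at 0. The Setdb1 to Trim28 ratio lies at 0.5 to 0.538 in control and 0.864 to 0.874 in SAFB KD.

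In level, per kilobase of exon, the members spanned a wide range in controls. Sumo2 was highest at 122.8 ± 10.8 CPM per kb, then Cbx5 at 74.6 ± 1.29, Trim28 at 58.8 ± 2.03 and Uhrf1 at 42.3 ± 0.457. Hells (37.5 ± 2.68) and Dnmt1 (35.9 ± 0.267) did not differ beyond their spread, nor did Morc2a (14.2 ± 0.194) and Zc3hav1 (14.2 ± 0.659). Setdb1 stood at 18.6 ± 0.209 CPM per kb in controls, below Mphosph8 (21 ± 0.797) and Pphln1 (19.3 ± 0.247). In SAFB KD it stood at 27.9 ± 0.355, above both (19 ± 0.473 and 17.0 ± 0.404). Lengths were the joined exons of all transcripts, and the order depends on that choice. By the longest transcript alone, Cbx1 (61.1 CPM per kb) and Cbx3 (59.7) stood above Uhrf1 (50.2), and Atrx stood at 36.0 instead of 17.0.

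Genes around the members were counted from lists of the same pathways. Of 98 tested genes in 5 lists of other silencing and restriction genes, 23 were higher and 27 lower, or 51%, with a median change of 0.003. Among 18 partners of TRIM28, SETDB1, HUSH and MORC, 6 were higher and 4 lower. The SUMO ligase gene Pias4 measured 16.0 to 17.4 CPM in controls and 21.4 to 23.0 CPM in SAFB KD (0.41, adjusted p = 5.93e-07). Trim24, a relative of Trim28, was higher (0.34, adjusted p = 6.38e-07), as was Morc4 (0.23, adjusted p = 1.27e-06).

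Among 20 other heterochromatin genes, 3 were higher and 8 lower. Kmt5b, which encodes a methyltransferase of histone H4 lysine 20, went from 49.7 to 53.5 CPM in controls to 34.8 to 38.1 CPM in SAFB KD (-0.50, adjusted p = 6.25e-12). The remodeller gene Chd4 (-0.33, adjusted p = 3.40e-12) and Ubn1, a subunit of the HIRA chaperone of histone H3.3 (-0.29, adjusted p = 4.58e-09), were lower. Kdm4c, which encodes a demethylase of H3K9, was higher (0.30, adjusted p = 1.16e-08). Among 15 other DNA methylation genes, 4 were higher and 5 lower. Of the genes of TET enzymes, which oxidise methylcytosine, Tet1 fell by 0.69 on the log2 scale (adjusted p = 2.83e-06) and Tet3 by 0.19 (adjusted p = 2.17e-04). Tet2 was lower as well (-0.17, edgeR adjusted p = 0.00629). Zbtb38, whose product binds methylated DNA, was higher (0.16, adjusted p = 7.55e-04).

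Of 19 corepressor genes, 7 were higher and 4 lower. Mta2, a subunit of the NuRD complex, was higher (0.21, adjusted p = 2.11e-07), as was Pcgf6 (0.23, adjusted p = 2.89e-04). Rybp (-0.32, adjusted p = 5.81e-07) and L3mbtl2 (-0.24, adjusted p = 1.78e-04), which like Pcgf6 encode parts of variant Polycomb complexes, were lower. Of 26 genes tested as other restriction factors, 3 were higher and 6 lower, or 34.6%. The entry for Shfl, which was not called, was read from BC055324 on chromosome 1, which may be a different gene. This entry also counts in the total of the 5 lists. Trim25, a cofactor of ZAP, was higher (0.19, adjusted p = 4.19e-05). Khnyn, which encodes a nuclease that works with ZAP, was lower (-0.30, adjusted p = 4.13e-05), as were Trim56 (-0.23, adjusted p = 5.08e-07) and N4bp1 (-0.18, adjusted p = 8.03e-05). Trim25 and Khnyn thus differed in direction, while Zc3hav1 was higher.

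**Figure D4:**
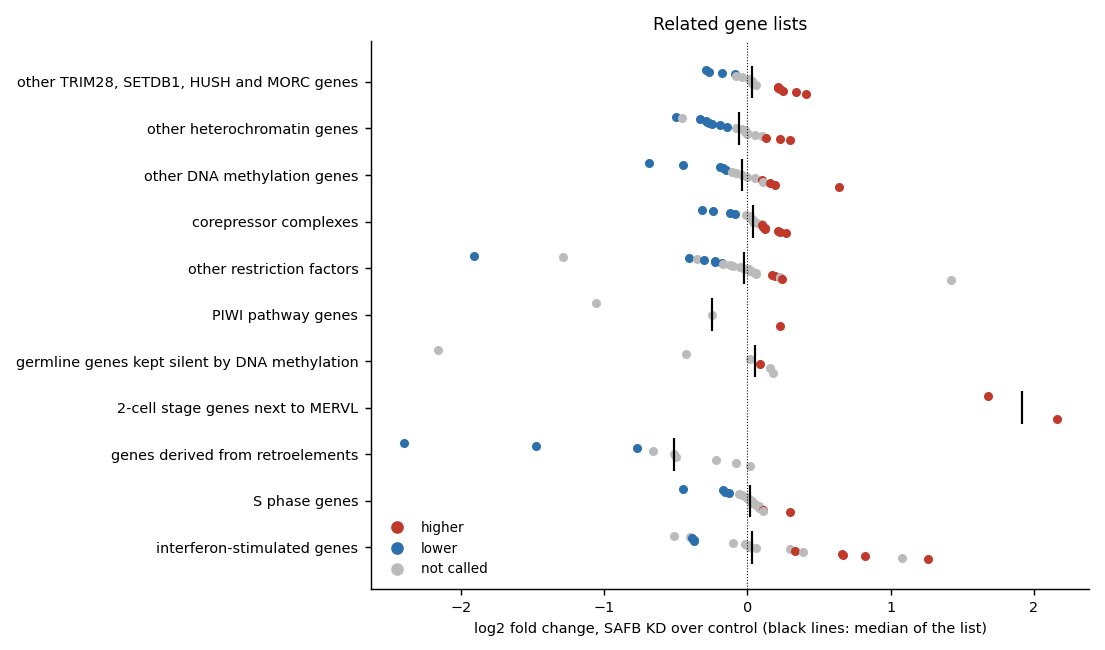
Log2 fold change of SAFB KD over control for each tested gene of 11 related lists (points), coloured by call, with the median of each list as a black line. The medians of the 5 lists of silencing and restriction genes lie between -0.059 and 0.040.

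Transcripts of the members were searched for GAAGAA, because SAFB proteins bind RNA. The study gives this motif for human SAFB proteins and GAAGAAGA, which contains it, for mouse Safb1. Only spliced transcripts were searched, so introns, where the study found most SAFB peaks within human genes, were left out. The longest protein-coding transcript of each gene was used, overlapping copies were counted, and the reverse complement TTCTTC was counted separately. GAAGAA was present in 29 of 31 tested members (93.5%) and in 83.1% of 13506 tested protein-coding genes. TTCTTC was present in 71% and 69.4%. The median density was 0.989 GAAGAA per kb in the members and 0.724 in all tested coding genes. Mphosph8 had 11 copies (3.74 per kb), a density above that of 98.5% of coding genes, and Atrx had 35 copies in 10275 bases (3.41 per kb), more copies than 99.8% of coding genes. Setdb1 had 3 copies (0.644 per kb).

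The stretches of 90 bases with the most GAAGAA within 1 coding exon are shown for the members with the highest densities and for Setdb1, the member that rose most. They are the sense sequences of GENCODE M21 transcripts (GRCm38), with GAAGAA in capitals.
Atrx, exon 31, chrX:105803803-105803892, minus strand: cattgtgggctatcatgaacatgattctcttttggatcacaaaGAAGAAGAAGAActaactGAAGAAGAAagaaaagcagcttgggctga
Mphosph8, exon 3, chr14:56674089-56674178, plus strand: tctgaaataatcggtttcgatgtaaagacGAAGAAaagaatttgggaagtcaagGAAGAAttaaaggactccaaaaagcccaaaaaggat
Setdb1, exon 10, chr3:95341351-95341440, minus strand: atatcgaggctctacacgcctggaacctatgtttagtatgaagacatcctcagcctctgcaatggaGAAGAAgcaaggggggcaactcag
The Atrx stretch held 5 overlapping copies, that of Mphosph8 2 and that of Setdb1 1. Atrx also has a long coding exon, exon 9, whose coding part of 3014 bases (chromosome X, 105874560 to 105877573) held 9 of its copies. That length was above that of 98.7% of tested coding genes. Resf1 had the longest coding segment of all members, 4327 bases (above 99.5%), with a change of -0.14, while the median was 343.0 bases for members and 294.0 for tested coding genes.

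Across the 31 tested members the density of GAAGAA and the log2 fold change had a Spearman correlation of -0.05, and 0.04 without Atrx. Across all 13506 tested coding genes it was 0.04. For the length of the longest coding segment it was -0.06 in the members, 0.03 without Atrx, and -0.14 across coding genes. Measures of gene size gave more negative values in the members, at -0.39 for genomic span (-0.32 without Atrx), -0.29 for the longest exon (-0.23) and -0.24 for joined exonic length (-0.16). Across coding genes these were -0.14, -0.16 and -0.18. These are correlations across genes, which share the same 6 libraries and are not independent replicates. Cbx3 and Cbx1, next in density at 2.65 and 2.19 per kb, had changes of -0.00, and Cbx5, at 0.227 per kb, was lower. A match is a description of the letters, and binding was not analysed here.

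**Figure D5:**
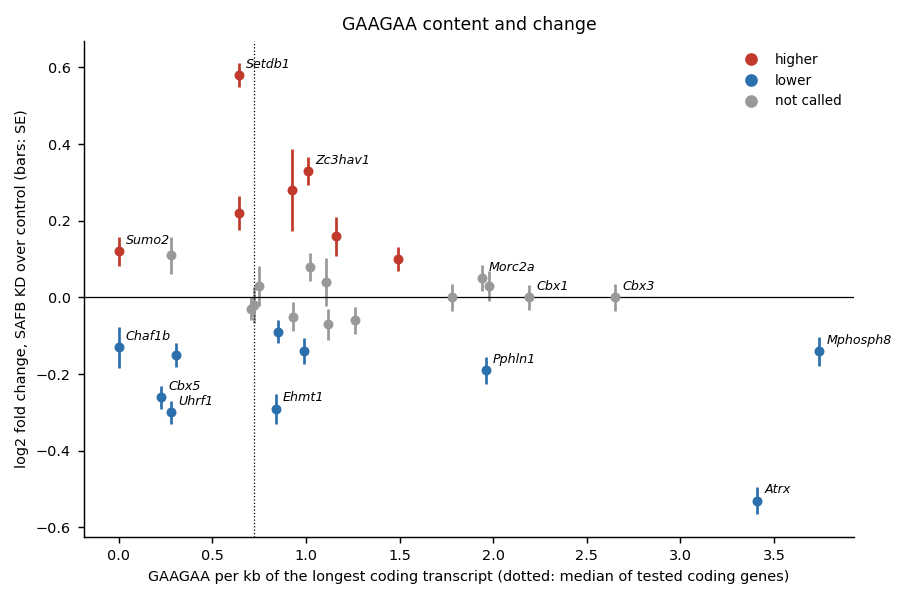
GAAGAA copies per kb of the longest coding transcript (x axis, median of tested coding genes dotted at 0.724) against the log2 fold change of SAFB KD over control (y axis, bars: SE) for 31 genes. Mphosph8 (3.74 per kb) and Atrx (3.41) lie apart on the right, both below 0, and the other points spread on both sides of 0.

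Genes inside introns of members were also read, because the study asked what happens to hosts of retrogenes on their own strand. Of 9 such genes on the same strand, 7 had 10 or more reads over the 6 libraries, in introns of Smchd1, Atrx, Ehmt1, Chaf1b and Zfp809, and none was called. They held at most 46 reads in a library. Of these 7, only Gm14853 is annotated as a processed pseudogene, and Gm4707 as protein-coding, so most of them are not known retrogenes. Gm12987 in Kdm1a is also a processed pseudogene, but had too few reads to be tested. In Smchd1, Gm4707 had a change of 0.67 (adjusted p = 0.223), Gm38220 of -0.54 (adjusted p = 0.089) and Gm37639 of -0.25 (adjusted p = 0.682). The pseudogene Gm14853 in Atrx had -1.07 (adjusted p = 0.260). Gm38147 in Ehmt1 had 0.22 (adjusted p = 0.805), Gm48478 in Zfp809 0.21 (adjusted p = 0.823) and Gm49617 in Chaf1b -0.34 (adjusted p = 0.833). On the opposite strand, Zbtb45, within an intron of Trim28, was lower (-0.50, adjusted p = 1.06e-04), and the pseudogene Gm11517, within an intron of Cbx1, was higher (1.26, adjusted p = 0.00700). Both were named after their values were seen.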

How the data were processed

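Poly(A)+ RNA of 3 control and 3 SAFB KD libraries was compared, grouped by the sample titles. The series text calls the replicates biological. The deposited values were counts, whole numbers of reads per gene. The authors trimmed the reads, aligned them to GRCm38 with STAR 2.7.9a and counted reads per gene with it. That the single column holds the reverse-stranded counts is inferred from their methods. This leaves out reads on exons of more than 1 gene, reads with several best loci and intronic reads. The RNA of transposons themselves was not analysed here. The submitters' processing notes also name mm10 and deepTools 3.5.1.

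Identifiers were matched to GENCODE M21 (54495 matched, 37 did not), and the study used release 19 for mouse. Genes needed 10 or more reads summed over the 6 libraries. After TMM scaling, groups were compared in edgeR 4.0.16 (R 4.3.3) by its quasi-likelihood test without covariates, with p-values adjusted by Benjamini-Hochberg over 19452 genes and called at an adjusted p under 0.05. The SE is the log2 change divided by the root of the test statistic. Errors on CPM are SD of 3 libraries. Alternatives were DESeq2 1.42.0, limma-voom (limma 3.58.1), other size factors, other filters, a replicate block and leaving out each library. Tests were 2-sided and were checked on simulated data, in which 200 of 19452 genes were changed. That is a far smaller share than was called here, and the simulated folds were larger than those of nearly all members. The check therefore does not cover changes as small as most of those reported. The depth of 33323307 to 53441129 counts per library leaves counting error small for the members, and p-values measure the spread between these cultures.

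The members, the related lists and the tests were chosen with earlier results of these data known. Named genes were the members, the knockdown targets, up to 4 genes with the smallest adjusted p of each related list, and tested genes in an intron of a member on its strand. Some genes under this rule are not reported here. Genes outside this rule, such as Cers2, Tasor, Atrip, Cd68, Tet2 and Mcm2, were named after their values were seen.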

Additional observations from a re-analysis of the deposited data

How the results depend on the processing

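Of the 17 called members, 11 kept their call and direction under all 12 alternatives (6 other fits and 6 that leave out 1 library). The exceptions were Sumo2, Suv39h2, Ehmt2, Dnmt1, Dnmt3b and Chaf1b. Across the alternatives 5 to 9 members were called higher and 8 to 10 lower, and no member passed the 2-fold test. DESeq2 called 3598 genes higher and 3615 lower, against 4156 and 3908 by edgeR. The median change of all genes stayed between 0.000 and 0.010. Some members near 0 changed sign without ever being called. Cbx1 was 0.002 without the count minimum. Cbx3 was 0.003 by limma-voom and 0.003 without the count minimum. Samhd1 was -0.006 with RLE size factors, -0.006 by DESeq2 and -0.008 with filterByExpr. With 1 library left out, Cbx1 ranged from -0.029 to 0.012, Cbx3 from -0.050 to 0.027, Kdm1a from -0.038 to 0.062, Samhd1 from -0.013 to 0.006 and Apobec3 from -0.055 to 0.017. Same-numbered libraries did not deviate together over all tested genes (correlations -0.00514, -0.00907 and -0.0166), so no pairing was seen by this measure. The titles do not say whether same-numbered libraries were handled together, and a small shared part could be missed. With a replicate block, 9 members were called higher and 10 lower, with Hells (0.077) and Mov10 (0.114) added. Levels per kb rest on the length used. The depth limits little here except for Dnmt3b, at 146 reads or more per library.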

Other observations

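Most genes of 3 lists of embryonic and germline genes had under 10 reads over the 6 libraries. Of 15 genes of the 2-cell embryo next to MERVL elements, 13 had fewer than 10 reads over the 6 libraries, among them those of the Zscan4 cluster, and 10 had none. The tested pair were both higher in SAFB KD. Usp17la, a deubiquitinase gene, measured 0.760, 0.665 and 0.327 CPM in controls and 2.30, 1.67 and 1.85 CPM in SAFB KD (log2 fold change 1.68, SE 0.246, edgeR adjusted p = 3.23e-07). Usp17lb measured 0.0691, 0.0492 and 0 CPM in controls and 0.227, 0.139 and 0.229 CPM in SAFB KD (2.16, SE 0.830, adjusted p = 0.0332). It had at most 12 reads in a library, which is near the floor. Neither gene passed the test beyond 2-fold (edgeR glmTreat adjusted p = 0.0777 for Usp17la and 0.949 for Usp17lb). Both belong to a family of close copies, so reads that fit several copies are missing and the values of each are uncertain. The same limit holds for other families of the list, such as the Zscan4 cluster, so their low counts do not show that they were silent. Of 15 germline genes, 6 were tested and 1 was called, Rhox5, which was well expressed at 392.1 to 455.2 CPM in controls and 443.4 to 458.7 CPM in SAFB KD (0.09, adjusted p = 0.0386). Brdt (0.16, adjusted p = 0.208), Sycp3 (-2.16, adjusted p = 0.0526) and Xlr3a (-0.43, adjusted p = 0.299) were not called. Of 13 PIWI pathway genes, 3 were tested, and Tdrkh alone was called (0.23, adjusted p = 1.77e-04). Piwil2 (-1.06, adjusted p = 0.257) and Tdrd9 (-0.25, adjusted p = 0.701) were not.

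Of 18 genes derived from retroelements, 9 were tested, and 3 were lower and 0 higher by edgeR. Rtl1, a gag-like gene of the imprinted Dlk1 cluster, measured 0.922, 0.886 and 0.625 CPM in controls and 0.114, 0.162 and 0.172 CPM in SAFB KD (-2.40, SE 0.401, adjusted p = 3.68e-06). Arc, which encodes a capsid-forming protein of neurons, measured 3.60 to 3.99 CPM in controls and 1.96 to 2.53 CPM in SAFB KD (-0.77, adjusted p = 1.72e-05). Rtl3 was lower (-1.48, adjusted p = 0.00660), and Rtl5 was not called (-0.66, adjusted p = 0.0699). Tmem173, which encodes STING, was lower (-0.39, adjusted p = 5.85e-05).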
